A study of Mus musculus with 6 samples.

Results

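The glutathione transferase genes described here are 10 rows of the deposited count table, chosen by symbol: Gsta4, Gstm1, Gstm2, Gstm5, Gstp1, Gstt1, Gsto1, Gstk1, Mgst1 and Mgst3. They were chosen with earlier results of these data known. All 10 were found among the 21719 genes of the table, and 8 of them had enough reads to be tested. The RNA came from MPC5, a mouse podocyte line made by conditional immortalisation, and all cultures were in high glucose. The 3 libraries labelled Setdb2KO were set against the 3 labelled Setdb2WT, to ask which transcripts differ with the genotype at Setdb2, a gene of the histone lysine methyltransferase family. The sources used here do not say how the knockout was made, whether it is a single clone, or whether replicates are separate cultures. The p-values therefore speak only of the spread between these 6 libraries, which may be technical.

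The libraries held 36461449 to 37129174 reads. Setdb2 itself, the targeted gene, had 17, 15 and 25 reads in the libraries labelled Setdb2KO, against 12, 10 and 9 in those labelled Setdb2WT, so it was not lower under the knockout label (log2 fold change 0.73, SE 0.38; adjusted p = 0.088 in edgeR's quasi-likelihood test, and 0.043 under total-count scaling). Groups are therefore called by their labels, and every direction below is Setdb2KO relative to Setdb2WT by label. The libraries labelled Setdb2KO differed more among themselves than the others did, with pairs at a chi-square over its degrees of freedom between 4.22 and 14.8, against 2.51 to 2.65, and replicate 2 took part in the larger values. Wt1, a defining podocyte transcription factor, had 1 read over the libraries labelled Setdb2KO and 3 over those labelled Setdb2WT, while the podocyte protein synaptopodin (Synpo) was present at 25.4 ± 1.8 and 43.6 ± 0.60 CPM (SD, n = 3 each); both are named after their values were seen. CPM are read counts scaled to library size with TMM factors.

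Glutathione transferases join the tripeptide glutathione to electrophiles such as lipid aldehydes, quinones and drugs, which makes the products more soluble and ready for export. The soluble enzymes fall into classes named alpha, mu, pi, theta, omega and kappa, and a separate group sits in membranes. In the kidney, alpha-class enzymes are known from the proximal tubule, and many genes of the family are targets of the transcription factor NRF2, which binds antioxidant response elements.

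RefSeq promoter windows, 250 bases before to 50 after an annotated start in GRCm38.p6, were matched for 9 of the 10 genes, all but Gsta4. Shown are those of Gstm1 and Gstm2, which were lower in the libraries labelled Setdb2KO, and of Gstm5 and Mgst1, which did not pass the test. Each is written 5′ to 3′ in the direction of its gene, and capitals mark any match to TGACNNNGC, the core of the antioxidant response element, to GCGTG, the core of the aryl hydrocarbon receptor element, or to GGGCGG, the GC box, on either strand.
Gstm1 (chr3:108017924-108018223, minus strand): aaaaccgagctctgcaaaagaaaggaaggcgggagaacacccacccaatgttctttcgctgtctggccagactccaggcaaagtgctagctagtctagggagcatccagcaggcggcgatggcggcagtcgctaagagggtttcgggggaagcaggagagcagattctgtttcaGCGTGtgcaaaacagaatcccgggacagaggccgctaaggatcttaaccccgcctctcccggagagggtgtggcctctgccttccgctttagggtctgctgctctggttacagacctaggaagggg
Gstm2 (chr3:107986371-107986670, minus strand): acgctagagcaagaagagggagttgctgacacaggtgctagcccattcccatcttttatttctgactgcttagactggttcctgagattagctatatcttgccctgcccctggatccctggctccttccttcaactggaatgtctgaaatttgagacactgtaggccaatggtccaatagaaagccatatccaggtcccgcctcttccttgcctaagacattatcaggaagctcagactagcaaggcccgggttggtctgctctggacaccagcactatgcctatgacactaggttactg
Gstm5 (chr3:107895604-107895903, plus strand): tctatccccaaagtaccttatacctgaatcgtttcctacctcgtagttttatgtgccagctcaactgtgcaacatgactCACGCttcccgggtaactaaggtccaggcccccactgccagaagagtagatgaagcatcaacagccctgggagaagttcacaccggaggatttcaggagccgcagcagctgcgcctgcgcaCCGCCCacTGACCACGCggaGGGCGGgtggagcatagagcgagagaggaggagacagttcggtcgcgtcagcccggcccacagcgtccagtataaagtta
Mgst1 (chr6:138140277-138140576, plus strand): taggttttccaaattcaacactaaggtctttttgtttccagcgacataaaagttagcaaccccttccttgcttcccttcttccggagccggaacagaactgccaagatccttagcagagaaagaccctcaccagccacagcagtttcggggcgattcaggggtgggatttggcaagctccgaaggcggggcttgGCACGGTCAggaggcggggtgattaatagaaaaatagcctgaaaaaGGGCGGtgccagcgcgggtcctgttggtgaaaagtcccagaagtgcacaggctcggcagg
Counting from the annotated start, the Gstm5 window held the antioxidant core TGACCACGC at -42, with a reverse match to GCGTG inside it at -38, a further reverse match at -171, and GC boxes at -50 and -30. The Mgst1 window held the antioxidant core in reverse, GCACGGTCA, at -56 and a GC box at -10. The Gstm1 window held GCGTG at -76, and the Gstm2 window held none of these letters. Of all 32851 mouse windows, 12.4% held the antioxidant core, 32.4% GCGTG and 35.7% the GC box. Of the 20696 windows of genes in the count table, the set the 9 genes come from, 13.5%, 41.8% and 49.3% did. Among the 9 genes an exact match to TGACNNNGC was found in Gstm5 and Mgst1 alone. GCGTG was found in Gstm1, Gstm5, Gstp1 and Mgst3, and the GC box in Gstm5, Gstp1, Gsto1, Gstk1, Mgst1 and Mgst3. Forms of the antioxidant core that differ by a letter were not searched in any window. Such stretches occur, for example tgagtcagc in the Gstp1 window and tgacacagg in the Gstm2 window. The exact search therefore does not show which genes lack an element. A second window was listed for both Gstm1 and Mgst1: that of Gstm1 overlaps the first and holds the same GCGTG, and that of Mgst1 holds no match. These matches describe the letters of the windows and do not show binding.

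Of the 8 genes tested, 6 fell in the libraries labelled Setdb2KO, 0 rose and 2 did not pass (adjusted p under 0.05, edgeR's quasi-likelihood test); total-count scaling gave 6 lower and 1 higher. Among all 13509 genes tested, 83.8% changed and 42.3% were lower, so a changed gene is the common case here. At least 2-fold falls were seen in 5 of the 8, but Gstp1 and Gsto1 sit at that limit: under total-count scaling they came to -0.87 and -0.93 on the log2 scale and the count was 3. Of all genes tested 32.6% changed by at least 2-fold and 16.2% fell that far. The median log2 fold change was -1.06 over the 8 genes and 0.0045 over all genes tested. These genes, and the gene lists further below, were chosen with earlier results of these data known. Their contrasts with all genes tested therefore describe the chosen genes and are no test of a shift of the whole family. The libraries of the groups did not overlap in 6 of the 8, against 84.6% of all genes tested. Without Setdb2KO replicate 2 the count was again 6 lower. In bulk RNA, fewer cells of a type and less RNA per cell cannot be told apart.

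**Figure D1:**
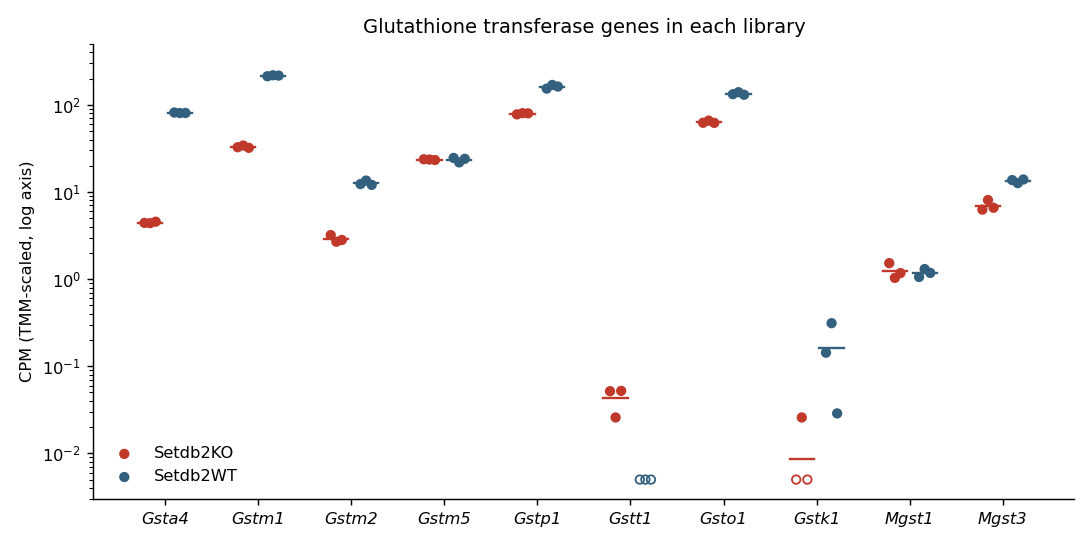
CPM of each of the 10 genes (log axis) in every library, with the Setdb2KO-labelled libraries left and the Setdb2WT-labelled right; lines are means, and open points at the bottom are libraries with 0 reads. Gsta4, Gstm1, Gstm2, Gstp1, Gsto1 and Mgst3 lie lower in all 3 libraries labelled Setdb2KO, while Gstm5 and Mgst1 overlap.

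Gsta4, the alpha-class enzyme that conjugates the lipid peroxidation product hydroxynonenal, had the largest fall of the 8. It had 171, 170 and 175 reads in the libraries labelled Setdb2KO, against 2856, 2840 and 2808 in those labelled Setdb2WT, which is 4.42, 4.39 and 4.56 CPM against 81.7, 80.6 and 80.7 CPM. The groups were far apart and the libraries of each were close together. The log2 fold change was -4.18 (SE 0.06, 95% interval -4.30 to -4.06; adjusted p = 3.4e-16, edgeR's quasi-likelihood test), and 0.725% of all genes tested had a lower one. No stretch of 50 bases of its annotated transcripts is shared with another gene, so near-identical copies do not touch this value.

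The alpha-class relatives next to Gsta4 on chromosome 9 were lower too, at far lower levels. Gsta1 had 6 reads over the libraries labelled Setdb2KO and 179 over those labelled Setdb2WT (log2 fold change -4.95, SE 0.44; edgeR adjusted p = 1.1e-07), and Gsta2 had 5 and 70 (-3.85, SE 0.59; edgeR adjusted p = 3.3e-05). Gsta1 and Gsta2 are near-identical copies, with 90.5% and 49.8% of their 50-base stretches found in another gene, so how reads fell between them is uncertain. On the other flank, Cilk1, the nearest tested gene, fell slightly (18.03 ± 0.49 CPM in the libraries labelled Setdb2KO and 20.8 ± 1.0 CPM in those labelled Setdb2WT; log2 fold change -0.20, SE 0.06, edgeR adjusted p = 0.0098), and Fbxo9 beyond it did not pass (-0.04, SE 0.08; edgeR adjusted p = 0.65). Both were read off as neighbours, not chosen by their values.

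The mu-class genes, whose enzymes conjugate a broad range of electrophiles, split. Gstm1 had 1263, 1323 and 1233 reads in the libraries labelled Setdb2KO, against 7449, 7713 and 7544 in those labelled Setdb2WT. That is 32.99 ± 1.1 CPM and 216 ± 2.9 CPM (SD, n = 3 each), with no overlap. Its log2 fold change was -2.71 (SE 0.04, 95% interval -2.79 to -2.63; adjusted p = 4.5e-16, edgeR's quasi-likelihood test). Gstm2 stood at a lower level, with 124, 104 and 108 reads in the libraries labelled Setdb2KO and 431, 477 and 420 in those labelled Setdb2WT. Its means were 2.90 ± 0.27 CPM and 12.6 ± 0.78 CPM (SD, n = 3 each), and it fell 4.35-fold (log2 fold change -2.12, SE 0.11; edgeR adjusted p = 2e-10).

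Gstm5 was near level between the groups. It had 919, 913 and 894 reads in the libraries labelled Setdb2KO, against 860, 771 and 836 in those labelled Setdb2WT, or 23.8, 23.6 and 23.3 CPM against 24.6, 21.9 and 24.0 CPM. The libraries overlapped, and the log2 fold change was 0.0029 (SE 0.06, 95% interval -0.13 to 0.14; edgeR adjusted p = 0.97). Under total-count scaling it was 0.16 and passed edgeR's test at an adjusted p of 0.028, but the median of all genes tested moved to 0.16 under that scaling too.

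Ratios of reads inside a library do not depend on how libraries are scaled, and they show the same split. The Gstm1 to Gstm5 read ratio was 1.37, 1.45 and 1.38 in the libraries labelled Setdb2KO, against 8.66, 10 and 9.02 in those labelled Setdb2WT. For Gstm2 over Gstm5 it was 0.135, 0.114 and 0.121 against 0.501, 0.619 and 0.502. The ratio of Gstm1 to Gstm2 reads was 10.2, 12.7 and 11.4 in the libraries labelled Setdb2KO and 17.3, 16.2 and 18 in those labelled Setdb2WT. None of these 3 ratios overlapped between the groups.

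On chromosome 3 the mu-class genes lie in a row, Gstm5, Gstm7, Gstm6, Gstm3, Gstm2, Gstm1 and Gstm4 in GRCm38 order. Gstm7, the neighbour of Gstm5, fell (0.519 ± 0.17 CPM in the libraries labelled Setdb2KO and 1.41 ± 0.18 CPM in those labelled Setdb2WT; log2 fold change -1.44, SE 0.30, edgeR adjusted p = 4.4e-04). Gstm6, Gstm3 and Gstm4 had too few reads to be tested. The tested genes flanking the row fell as well: Csf1, a macrophage growth factor, outside Gstm5 (log2 fold change -0.75, SE 0.03; edgeR adjusted p = 1.7e-11), and Ampd2, an AMP deaminase, outside Gstm1 (-1.11, SE 0.03; edgeR adjusted p = 2.9e-13).

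**Figure D2:**
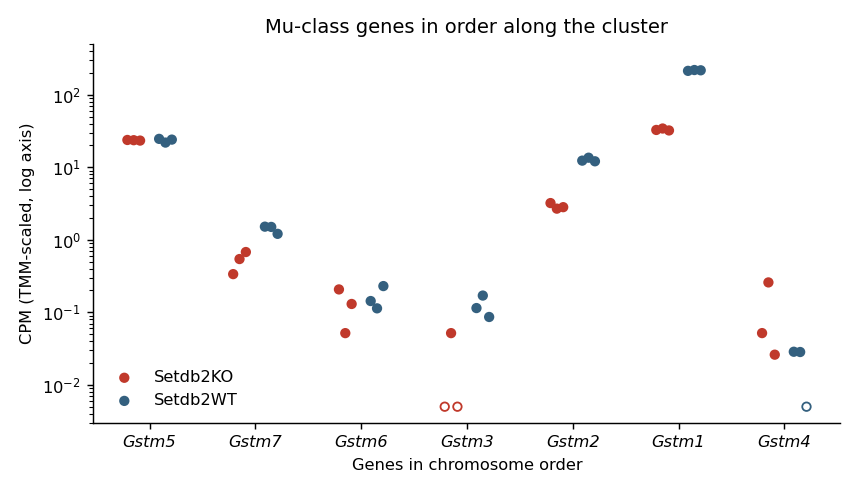
CPM (log axis) of the 7 mu-class genes in chromosome order, Setdb2KO-labelled libraries left and Setdb2WT-labelled right; open points are libraries with 0 reads. Gstm7, Gstm2 and Gstm1 are lower in every library labelled Setdb2KO, and Gstm5 overlaps.

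Shared sequence limits some of these values. Among 50-base stretches of annotated Gstm1 transcripts, 18.9% occur in another gene, 14.1% in the pseudogene Gstm2-ps1 and 8.16% in Gstm3; the coding sequences of Gstm1 and Gstm3 are 89.5% identical. For Gstm2 the share is 5.66%, and 0.655% lies in Gstm1, so that most of what is counted for each can be told apart. Gstm5 is more distant, with 73.1% coding identity to Gstm2 and no 50-base stretch in common with another mu gene; 9.44% of its stretches lie in 4933431E20Rik, and with the strand setting not given, reads there are uncertain.

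Gstp1 and Gsto1 were the most abundant of the 10 in the libraries labelled Setdb2KO, and both fell about as much. Gstp1, the pi-class enzyme, had 77.8, 80.3 and 79.9 CPM in the libraries labelled Setdb2KO, against 154, 169 and 162 CPM in those labelled Setdb2WT. It fell 2.04-fold without overlap (log2 fold change -1.03, SE 0.04, 95% interval -1.11 to -0.94; edgeR adjusted p = 9.4e-12). Gsto1, the omega-class enzyme that reduces dehydroascorbate, had 62.3, 65.9 and 62.2 CPM in the libraries labelled Setdb2KO, against 133, 140 and 131 CPM in those labelled Setdb2WT. Its fall was 2.12-fold, again without overlap (log2 fold change -1.08, SE 0.04, 95% interval -1.17 to -0.996; edgeR adjusted p = 5.7e-12). The ratio of Gstp1 to Gsto1 reads was 1.25, 1.22 and 1.29 in the libraries labelled Setdb2KO and 1.16, 1.21 and 1.24 in those labelled Setdb2WT, and these overlapped.

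Gstp1 has the closest copy of all 10 genes: Gstp2, with 98.1% coding identity, holds 33.7% of its 50-base stretches, and the pseudogene Gstp-ps 20.3%. Gstp2 had 9, 30 and 10 reads in the libraries labelled Setdb2KO and 20, 12 and 23 in those labelled Setdb2WT, and did not pass (log2 fold change -0.31, SE 0.47; edgeR adjusted p = 0.55). Without Setdb2KO replicate 2 its log2 fold change was -1.08, at an edgeR adjusted p of 0.049. Gstp-ps fell 2.23-fold (5.74 ± 0.64 CPM in the libraries labelled Setdb2KO and 12.8 ± 0.36 CPM in those labelled Setdb2WT, SD, n = 3 each; edgeR adjusted p = 5.8e-08), close to Gstp1 in size. Reads of Gstp1, Gstp2 and Gstp-ps may have been exchanged in the counting.

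Gstk1 and Gstt1 were nearly silent and were not tested. Gstk1, the kappa-class enzyme of mitochondria and peroxisomes, had 0, 1 and 0 reads in the libraries labelled Setdb2KO and 5, 11 and 1 in those labelled Setdb2WT. The ratio of summed reads, scaled by library size, was 0.0534 (exact 95% interval 0.00128 to 0.34, counting error only). Gstt1, the theta-class enzyme known for halogenated compounds, had 2, 1 and 2 reads in the libraries labelled Setdb2KO and 0 in each library labelled Setdb2WT, where 0 reads allow up to 0.0286 CPM over the group. Kappa-class and theta-class levels this low give no firm direction.

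The theta-class neighbours of Gstt1 were better covered and did not pass. Gstt3 had 5.80 ± 0.34 CPM in the libraries labelled Setdb2KO and 6.20 ± 0.97 CPM in those labelled Setdb2WT (log2 fold change -0.09, 95% interval -0.37 to 0.18; edgeR adjusted p = 0.50), and its sign turned under total-count scaling. Gstt2 had 1.67 ± 0.14 CPM and 1.32 ± 0.31 CPM (log2 fold change 0.33; edgeR adjusted p = 0.20).

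The membrane-bound enzymes differed as well. Mgst3, known for glutathione conjugation and peroxidase activity in membranes, had 6.28, 8.08 and 6.59 CPM in the libraries labelled Setdb2KO, against 13.7, 12.7 and 13.9 CPM in those labelled Setdb2WT. It fell 1.92-fold without overlap (log2 fold change -0.94, SE 0.10, 95% interval -1.16 to -0.72; edgeR adjusted p = 8.8e-07). Mgst1, an enzyme of the endoplasmic reticulum and the outer mitochondrial membrane, had 59, 40 and 45 reads in the libraries labelled Setdb2KO and 37, 46 and 41 in those labelled Setdb2WT. Its libraries overlapped at 1.24 ± 0.25 CPM and 1.18 ± 0.12 CPM (SD, n = 3 each), and the log2 fold change of 0.07 had a 95% interval of -0.45 to 0.60 (edgeR adjusted p = 0.78), so changes of up to about that size were not detectable at this depth. Mgst2, their relative that can make leukotriene C, fell more than Mgst3, 5.38-fold, to 2.42 ± 0.095 CPM in the libraries labelled Setdb2KO against 13.03 ± 0.94 CPM in those labelled Setdb2WT (edgeR adjusted p = 4.2e-11); the difference between their changes was not tested.

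Summed over the 10 genes, glutathione transferase levels came to 212, 220 and 213 CPM in the libraries labelled Setdb2KO, against 633, 658 and 642 CPM in those labelled Setdb2WT. Levels of different genes can be set side by side only per length, as reads per kilobase of exon and library size (RPKM). On that scale the order in the libraries labelled Setdb2KO was Gstp1 at 96.7 ± 1.7, Gsto1 at 53.7 ± 1.8, then Gstm1 at 24.1 ± 0.77 and Gstm5 at 23.6 ± 0.23, which did not differ beyond their spread. Below these came Mgst3 at 6.37 ± 0.88, Gsta4 at 4.56 ± 0.093, Gstm2 at 2.43 ± 0.23 and Mgst1 at 0.678 ± 0.14 RPKM (SD, n = 3 each). In the libraries labelled Setdb2WT the order was Gstp1 at 197 ± 9.5, Gstm1 at 158 ± 2.1, Gsto1 at 114 ± 4.1, Gsta4 at 82.9 ± 0.64, Gstm5 at 23.6 ± 1.4, Mgst3 at 12.2 ± 0.62, Gstm2 at 10.6 ± 0.65 and Mgst1 at 0.644 ± 0.067 RPKM. Gstt1 averaged 0.0293 and 0 RPKM, and Gstk1 0.00926 and 0.173 RPKM, in the libraries labelled Setdb2KO and Setdb2WT.

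The make-up of the family transcripts shifted with the fall. Gsta4 made up 2.15% ± 0.074 of the summed RPKM in the libraries labelled Setdb2KO and 13.8% ± 0.40 in those labelled Setdb2WT, and Gstm1 11.4% ± 0.19 and 26.4% ± 0.26 (SD, n = 3 each). Gstp1 made up 45.5% ± 0.61 in the libraries labelled Setdb2KO and 32.9% ± 0.90 in those labelled Setdb2WT, and Gstm5 11.1% ± 0.25 and 3.94% ± 0.32. Of these, Gstp1 itself fell and Gstm5 did not pass, so their larger shares stand beside smaller sums.

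**Figure D3:**
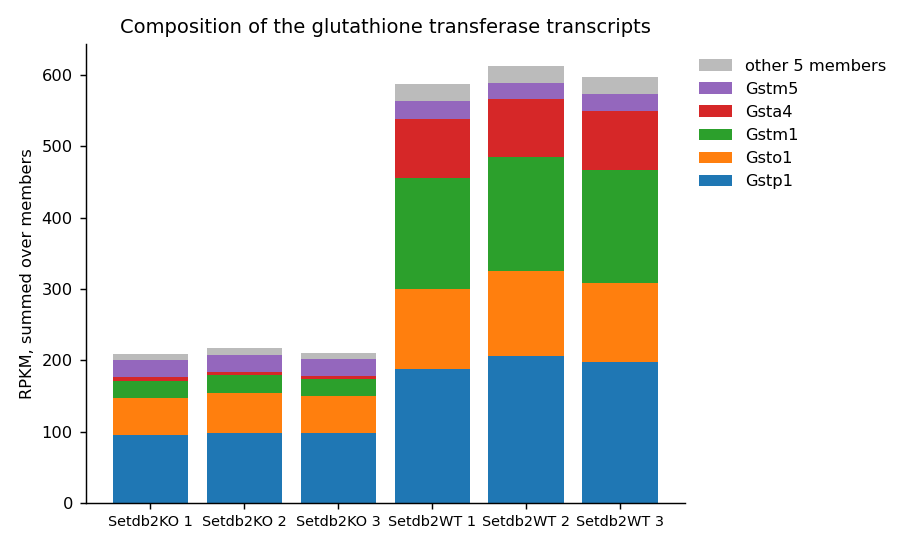
Summed RPKM of the 10 genes in each library, Setdb2KO-labelled libraries left. Stacked are Gstp1, Gsto1, Gstm1, Gsta4 and Gstm5, the 5 most abundant in the libraries labelled Setdb2WT, and the other 5 together. The columns reach 209 to 217 in the libraries labelled Setdb2KO and 587 to 613 in those labelled Setdb2WT. The Gstm1, Gstp1, Gsta4 and Gsto1 segments are all shorter in the libraries labelled Setdb2KO, and that of Gstm5 is about as tall.

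Beyond the 10, a list of 25 other genes of the family and of related folds was looked up; 24 were in the table and 13 could be tested. Falls were called in 8 and rises in 2, and 3 stayed under the threshold, where 83.8% of all genes tested changed and 42.3% were lower. The median log2 fold change was -0.79. Gstcd, named for its glutathione transferase-like end, fell 2.50-fold (38.2 ± 0.89 CPM in the libraries labelled Setdb2KO and 95.7 ± 0.95 CPM in those labelled Setdb2WT; edgeR adjusted p = 5.2e-13), and Gstz1, the zeta-class isomerase of tyrosine breakdown, 1.73-fold (13.1 ± 1.0 and 22.7 ± 1.4 CPM; edgeR adjusted p = 2.5e-07). Ptges2, a prostaglandin E synthase, fell slightly (17.5 ± 0.70 and 20.3 ± 1.3 CPM; edgeR adjusted p = 0.011) and did not pass under total-count scaling (adjusted p = 0.45).

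Both rises were of genes with few reads. Gsto2, beside Gsto1 on chromosome 19, had 19, 24 and 32 reads in the libraries labelled Setdb2KO and 6, 18 and 9 in those labelled Setdb2WT (log2 fold change 1.04, SE 0.42; edgeR adjusted p = 0.033). It lost the call without Setdb2KO replicate 3 (0.82), Setdb2WT replicate 1 (0.73) or Setdb2WT replicate 3 (0.90), at edgeR adjusted p of 0.12 to 0.15. Gdap1l1, a relative of a mitochondrial fission factor, had 43, 44 and 34 reads in the libraries labelled Setdb2KO and 0 in each labelled Setdb2WT, at least 36.6-fold higher against a floor of 3 reads over the group (edgeR adjusted p = 8.5e-07).

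The deposited annotation gives glutathione transferase activity to 32 genes, all 10 described here among them. Among the 19 of these with enough reads, 12 were lower, 2 higher and 5 uncalled, and the median was -1.03. Of all genes tested, 83.8% changed and 42.3% were lower. The 2 that rose were Gsto2 and Lancl1, a glutathione-binding protein (43.7 ± 2.3 CPM in the libraries labelled Setdb2KO and 23.5 ± 0.33 CPM in those labelled Setdb2WT; log2 fold change 0.90, SE 0.05, edgeR adjusted p = 1.5e-09), which is named here after its values were seen.

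**Figure D4:**
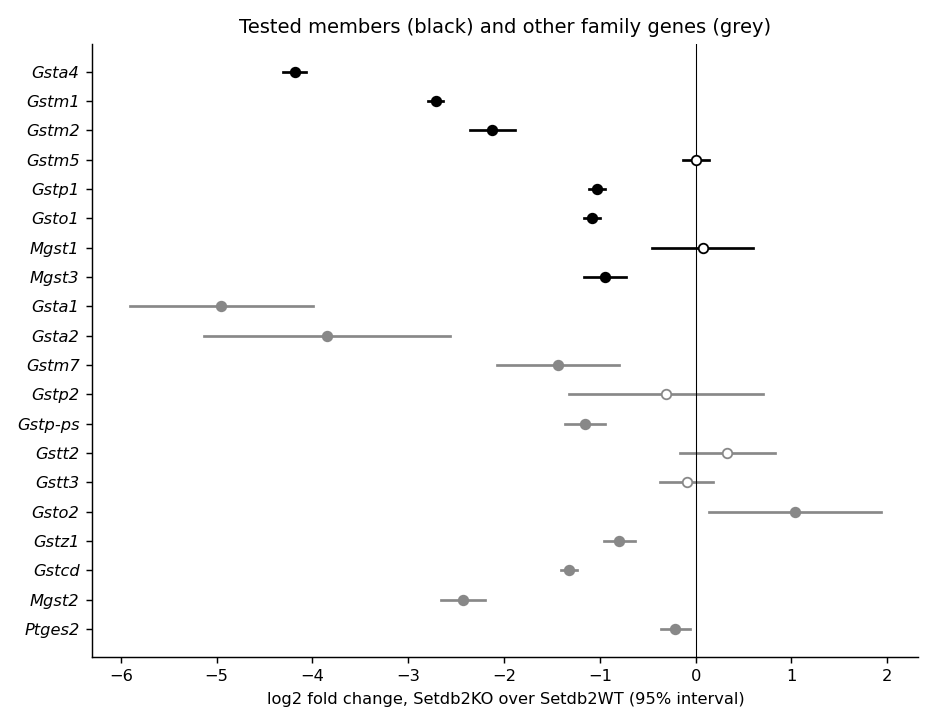
Log2 fold change of the libraries labelled Setdb2KO over those labelled Setdb2WT with its 95% interval, for the 8 tested genes (black) and 12 other tested family genes (grey); filled points passed the test at an adjusted p of 0.05. Gdap1l1 is left out because its reads were 0 in the libraries labelled Setdb2WT.

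Genes that supply glutathione moved in both directions. The 19 tested genes of glutathione synthesis, recycling and breakdown included 14 falls and 5 rises (13 and 5 with total-count scaling), where 83.8% of all genes tested changed, and their median log2 fold change was -0.43. Gclc, the limiting enzyme of glutathione synthesis, had 59.7 ± 2.4 CPM in the libraries labelled Setdb2KO and 433 ± 4.4 CPM in those labelled Setdb2WT. Pgd and G6pdx, which make the NADPH that keeps glutathione reduced, had 48.8 ± 2.2 and 42.0 ± 1.4 CPM in the libraries labelled Setdb2KO and 505 ± 8.6 and 243 ± 0.34 CPM in those labelled Setdb2WT. Among the 5 that rose, picked after their values were seen, were Slc7a11, which imports cystine (40.5 ± 2.5 and 10.9 ± 0.79 CPM; edgeR adjusted p = 6.2e-12), and Chac1, which degrades glutathione (112 ± 1.7 and 22.8 ± 3.0 CPM; edgeR adjusted p = 5.2e-13).

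Other users of glutathione included more falls than rises. The 14 tested peroxidases, glutaredoxins and glyoxalases included 11 falls and 1 rise (10 and 3 with total-count scaling), at a median of -0.64. Among all genes tested, 83.8% changed and 42.3% were lower. Prdx6, a peroxiredoxin that uses Gstp1 and glutathione, fell 3.20-fold (158 ± 4.9 CPM in the libraries labelled Setdb2KO and 507 ± 14 CPM in those labelled Setdb2WT; edgeR adjusted p = 1.3e-14). Esd, which releases glutathione from S-formylglutathione, fell 2.82-fold, and Gpx1, a glutathione peroxidase, 1.73-fold.

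Downstream, the 10 tested genes of conjugate export and mercapturate formation included 6 falls and 1 rise (6 and 2 with total-count scaling), at a median of -0.80, where 42.3% of all genes tested were lower. Abcc1, an export pump for glutathione conjugates, fell 3.15-fold (58.4 ± 3.1 CPM in the libraries labelled Setdb2KO and 184 ± 2.5 CPM in those labelled Setdb2WT; edgeR adjusted p = 8.1e-14), Abcc4 1.55-fold and Kyat3, a cysteine conjugate lyase, 3.83-fold. Other conjugating and reducing enzymes, 23 in number, gave 15 falls and 4 rises, at a median of -0.59. Nqo1, a quinone reductase, fell 7.11-fold (7.39 ± 0.80 and 52.6 ± 2.8 CPM; edgeR adjusted p = 1.9e-13), whereas Akr1b3, aldose reductase, rose 2.59-fold (1537 ± 53 and 593 ± 11 CPM; edgeR adjusted p = 4.4e-14). Sult1d1, a sulfotransferase, had 1.12 ± 0.19 and 126 ± 3.2 CPM.

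The factors known to control glutathione transferase genes included more rises than falls. Of 16 tested, 12 rose and 4 fell (41.5% of all genes tested were higher), and the median was 0.56. The list mixes activators with inhibitors, such as NRF2 and its inhibitor KEAP1, so the count gives no direction of control. The small Maf proteins Maff and Mafk, partners of NRF2 on DNA, rose 4.81-fold (190 ± 3.6 CPM in the libraries labelled Setdb2KO and 39.5 ± 0.83 CPM in those labelled Setdb2WT) and 2.41-fold (166 ± 5.3 and 68.9 ± 1.9 CPM), with edgeR adjusted p of 1.5e-15 and 5.9e-13. Sqstm1, an autophagy receptor that binds the NRF2 inhibitor KEAP1, rose 3.46-fold (1259 ± 62 and 364 ± 4.9 CPM; edgeR adjusted p = 1.2e-14). Named after their values were seen, Nfe2l2, which encodes NRF2, rose 1.503-fold (145 ± 14 and 96.6 ± 2.1 CPM), Keap1 fell 1.81-fold (43.1 ± 2.2 and 78.0 ± 1.9 CPM), and Ahr, the aryl hydrocarbon receptor, fell 2.06-fold (24.9 ± 2.6 and 51.4 ± 1.3 CPM), with edgeR adjusted p of 2.1e-07, 3.4e-10 and 2.5e-09. Bach1 and Bach2 of the same list, also named after their values were seen, rose too. Bach1 had 50.2 ± 2.2 CPM in the libraries labelled Setdb2KO and 37.9 ± 1.4 CPM in those labelled Setdb2WT (edgeR adjusted p = 3.6e-06). Bach2 had 16.3 ± 0.43 and 10.3 ± 0.72 CPM (edgeR adjusted p = 2.1e-06).

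**Figure D5:**
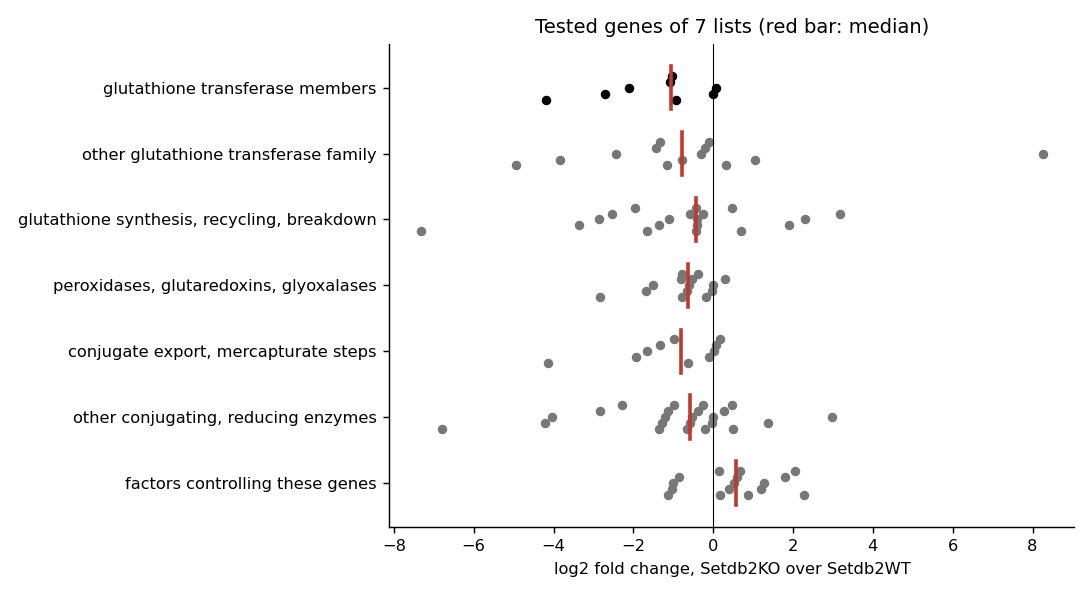
Log2 fold change, Setdb2KO over Setdb2WT by label, of every tested gene in 7 lists, with list medians as red bars from -1.06 in the glutathione transferase genes at the top to 0.56 in the factors at the bottom. The far points at 8.27 (Gdap1l1) and -7.33 (Cbs) are fitted values of genes with at most 1 read over the lower group.

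Markers of cell types moved along with these genes, and their part in the results was not tested. Of all genes tested, 42.3% were lower and 41.5% higher. Of 9 tested podocyte genes 6 fell and 2 rose (5 and 3 under total-count scaling), with Npnt, a basement membrane ligand, at 4.90 ± 0.18 and 93.1 ± 1.3 CPM, Podxl, a foot process coat protein, at 4.96 ± 0.38 and 50.5 ± 1.6 CPM, and Actn4, an actin cross-linker, at 524 ± 16 and 716 ± 0.061 CPM in the libraries labelled Setdb2KO and Setdb2WT. The summed level of the 11 podocyte genes found was 1317 to 1427 CPM in the libraries labelled Setdb2KO and 1518 to 1524 CPM in those labelled Setdb2WT. Actn4 and Cd2ap made up most of it. Cd2ap, named after its values were seen, rose, at 633 ± 67 and 415 ± 4.1 CPM. Of 6 tubule genes 3 rose and 3 fell, with summed levels of 721 to 768 and 1315 to 1329 CPM over the 12 found; Aqp1, a water channel, fell 9.05-fold and Cdh16, a kidney cadherin, 1.70-fold, while Pax8, a kidney lineage factor, rose 1.33-fold. Of the proximal tubule endocytic receptors, Lrp2 was well expressed, at 95.5 ± 4.5 CPM in the libraries labelled Setdb2KO and 126 ± 1.8 CPM in those labelled Setdb2WT, and Cubn stood at 8.22 ± 0.47 and 4.88 ± 0.35 CPM. Other tubule genes, Aqp2, Slc5a2 and Cdh1, averaged below 0.1 CPM in both groups. These 5 genes are named after their values were seen.

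All 6 tested parietal epithelium genes fell, where 42.3% of all genes tested were lower. Summed over the 7 found, their levels were 851 to 900 CPM in the libraries labelled Setdb2KO and 2985 to 3027 CPM in those labelled Setdb2WT. Cd24a fell 4.49-fold, Akap12 3.96-fold and Pax2 2.24-fold. The 7 tested mesangial and fibroblast genes all fell, but 6 did under 11 of the 14 alternatives, and Des, at an edgeR adjusted p of 0.046, had overlapping libraries. Their summed levels were 635 to 645 CPM in the libraries labelled Setdb2KO and 2396 to 2480 CPM in those labelled Setdb2WT over the 10 found. Vim alone averaged 606 ± 3.8 and 2308 ± 43 CPM, so these sums mostly describe Vim. Vim fell 3.81-fold, Tagln 6.04-fold and Ptn 16.6-fold, while Dcn and Itga8, named like Des after their values were seen, averaged below 0.1 CPM in both groups. Endothelial and immune genes stayed low, at 6.31 to 7.57 and 11.2 to 13.9 CPM summed over 7 and 5 genes in the libraries labelled Setdb2KO and 9.67 to 10.2 and 14.4 to 15.5 CPM in those labelled Setdb2WT. Of 3 endothelial genes Kdr and Ehd3 fell 1.87-fold and 1.93-fold and Esam rose 6.47-fold. Of 3 immune genes Csf1r fell 1.86-fold, Cd79a rose 4.40-fold and Cd68 rose 1.25-fold at an edgeR adjusted p of 0.049. Without Setdb2KO replicate 1 or 2 or Setdb2WT replicate 2 or 3, Cd68 did not pass, with log2 fold changes of 0.27, 0.25, 0.26 and 0.24.

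The genes nearest to Gsta4 and Gstm1 in pattern were found by the distance between mean-centred log2 CPM over the 6 libraries, among 9926 protein-coding candidates whose CPM averaged 5 or more. Nearest to Gsta4 were Npnt, at a distance of 0.144, Lbp, a lipopolysaccharide-binding protein, at 0.231, and Kcnip1, a potassium channel partner, at 0.269. Nearest to Gstm1 were Cdh3, P-cadherin, at 0.0473, Mvk, mevalonate kinase, at 0.0618, and the chaperone Hspa8, whose processed copies make its count uncertain, at 0.0663. With 2 groups that differ in most genes, this closeness goes with a fold change of like size, 17.3-fold to 21.1-fold lower for the first 3 genes and 6.47-fold to 6.58-fold lower for the others.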

How the data were processed

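The authors deposited 1 table of raw read counts per gene for 6 libraries, with 1 column per library. TRIzol gave total RNA, which, per the labels' protocols, went into a VAHTS Universal V6 library preparation. The programs fastp, HISAT and HTSeq and the build GRCm39 are named in the submitters' processing notes; the sources used here do not state versions, annotation or strand. Overlapping genes and near-identical copies may therefore have lost or exchanged reads.

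Columns were matched to samples by genotype and number, and 0 stayed unmatched. Testing used the quasi-likelihood functions of edgeR 4.0.16 in R 4.3.3, after TMM scaling and filterByExpr (minimum count 10). The model held genotype alone, and p-values of the 13509 tested genes were adjusted together by Benjamini-Hochberg. SE and intervals come from that fit, with a prior count of 0.125 behind fold changes. CPM were computed from the counts with TMM factors, and RPKM with exon lengths of GENCODE M21 on GRCm38. Exact intervals are at 95%. Counting intervals and floors of 3 reads cover counting error only. Simulated counts were used to test the scripts.

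Shared sequence was measured as the share of 50-base stretches of a gene's GENCODE transcripts found on either strand in another gene's, and coding identity by global alignment of the longest coding sequences within a class, which took the place of protein alignments. Promoter windows are from RefSeq (GRCm38.p6).

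The 10 genes and all lists were chosen with earlier results of these data known. Named genes are the 10, Setdb2, every tested gene of the other family list, the 3 genes of each further list with the smallest adjusted p and a mean CPM of at least 1, and the 3 nearest in pattern to Gsta4 and to Gstm1; any other is said to be chosen later or is a chromosome neighbour. Alternatives were DESeq2's size factors, total-count and upper-quartile scaling, a Wald test in DESeq2 1.42.0, voom in limma 3.58.1, no filter, a filter of CPM 1 in 3 libraries, a replicate block and each library left out.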

Additional observations from a re-analysis of the deposited data

How the results depend on the processing

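The 6 falls (Gsta4, Gstm1, Gstm2, Gstp1, Gsto1 and Mgst3) kept their direction and stayed past the threshold under all 14 alternatives, with log2 fold changes of -4.20 to -4.03 for Gsta4, -2.74 to -2.56 for Gstm1, -2.20 to -1.97 for Gstm2, -1.12 to -0.93 for Gsto1, -1.08 to -0.87 for Gstp1 and -1.06 to -0.79 for Mgst3. At least 2-fold falls numbered 5, but 3 under total-count scaling and 6 without Setdb2KO replicate 2. Total-count scaling added Gstm5 as a rise (0.16), giving 6 lower and 1 higher, while it moved the median of all genes tested to 0.16; it also gave Setdb2 an adjusted p of 0.043 and turned Gstt3 to 0.0593. Gstm5 was -0.0104 with no filter, and -0.0629 to 0.0228 as each library was left out; Mgst1 ran from -0.0957 to 0.1925 in the same way. The ratio of the summed level of the 10 genes, Setdb2KO over Setdb2WT by label, was 0.334 in CPM and 0.354 per length. With the replicate block the count of changed members stayed at 6 and that of all genes was 11190 against 11318; the mesangial and fibroblast list had 6 falls in place of 7, as it did under total-count scaling. No pairing by replicate number was visible: deviations of same-numbered libraries correlated at -0.0301 to 7.2e-04, and of the others at -0.0223 to 0.0338. These values cannot show how the cultures were set up. Gsto2 also missed the threshold with the DESeq2 Wald test (adjusted p = 0.055) and with no filter (0.052 in edgeR), and Cd68 with limma-voom (0.063) and no filter (0.064 in edgeR). With no filter, Gstk1 had an edgeR adjusted p of 0.013 and Gstt1 of 0.08, on 1 against 17 and 5 against 0 reads. With stretches of 100 bases, a length chosen after seeing the data, 25.1% of Gstp1 was shared with another gene. The cause of these changes was not tested. Depth limits genes under 100 reads in every library, such as Mgst1, Gsto2, Gstp2 and Gstm7.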

Other observations

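Further alpha-class genes with few reads, named after their values were seen, were counted in the libraries labelled Setdb2WT alone. Gsta5 had 0 reads over the libraries labelled Setdb2KO and 34 over those labelled Setdb2WT, at least 12.5-fold lower against a floor of 3 reads over the group, and Gm3776, the gene between Gsta1 and Gsta2, had 0 and 43, at least 15.8-fold lower. Of the 50-base stretches of Gsta1, 75.7% lie in Gm3776, so the split of reads between these is uncertain.

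In several family genes with few reads, Setdb2KO replicate 2 was the high library, which was seen in the data and not tested. Gsta3 had 3, 18 and 4 reads in the 3 libraries labelled Setdb2KO and 2, 5 and 2 in those labelled Setdb2WT. Gstm4 had 2, 10 and 1 reads against 1, 1 and 0, and Gstp2 had 9, 30 and 10 against 20, 12 and 23. Gsta1 (2, 2 and 2) and Gstm6 (8, 2 and 5) did not show this.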
